A study of Mus musculus with 9 samples.

Results

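The genes described here are those of the glutathione and thioredoxin antioxidant systems of the mouse, as measured by RNA sequencing in brain. They were chosen by gene symbol alone: the numbered glutathione S-transferases, microsomal glutathione transferases, glutathione peroxidases, peroxiredoxins, superoxide dismutases, thioredoxins and thioredoxin reductases, together with Cat, Nqo1, Hmox1, Hmox2, Gclc, Gclm, Gss, Gsr, Srxn1, Nfe2l2 and Keap1. The rule found 58 genes of the 22192 in the table. The mice were KM animals, an outbred stock, labelled male. One group was 18 months old and received 200 mg/kg of GRP-E1F2, an agent that the labels name by this code, by gavage every 2 days for 4 weeks. A second group, also 18 months old, received physiological saline by mouth on the same schedule, and another, 5 months old, received the same saline. These are called aged GRP-E1F2, aged saline and young saline, and each group had 3 libraries. By their labels, aged GRP-E1F2 and aged saline differ in the agent, and aged and young saline differ in age. Markers of cerebellum and of other cell types also differed between these groups, as given below. A fall with GRP-E1F2 or with age thus names the groups compared and not a cause. No young mice given GRP-E1F2 are among the samples used here.

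Glutathione, a tripeptide of glutamate, cysteine and glycine, is the main small thiol of cells. Glutamate-cysteine ligase, made of a catalytic subunit (Gclc) and a modifier subunit (Gclm), makes its precursor, and glutathione synthetase (Gss) completes it. Peroxidases and transferases spend it on peroxides and electrophiles, and glutathione reductase (Gsr) returns the oxidised form to the reduced one with NADPH. Peroxiredoxins, thioredoxins and thioredoxin reductases form a parallel system, and superoxide dismutases and catalase act on superoxide and hydrogen peroxide. Many of these genes are induced by the transcription factor NRF2 (Nfe2l2), which KEAP1 holds in check, through antioxidant response elements. In brain, astrocytes are known to hold much of this capacity and to supply neurons with glutathione precursors.

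Several properties of the libraries bear on every value below. The labels describe the libraries of a group as parallel samples without tying them to separate animals, and p-values here reflect no more than the spread among these libraries, which may be technical. Within every group, 1 library was intermediate between its 2 partners at most genes: GRP-E1F2 library 3 at 67.7%, aged saline library 2 at 66.3% and young saline library 3 at 62.6% of the 13301 genes tested, against 16.0% to 18.8% for the other 6 libraries. Among the 47 tested antioxidant genes these libraries were intermediate at 39, 30 and 36, against 3 to 12 for the others. Results are also shown from 2 libraries per group, with these 3 removed. Levels are in TPM, a length-normalised share of all transcripts that keeps no record of depth, and the depth is unknown. Although tissue and source are labelled brain, the labels' text on extraction mentions retinas. The summed level of 6 retinal markers was 2.43 to 3.30 TPM in aged GRP-E1F2, 0.832 to 1.62 TPM in aged saline and 0.814 to 2.54 TPM in young saline libraries, and that of 5 general neuronal markers was 3284 to 4145, 3637 to 4359 and 3796 to 3896 TPM in the same order of groups. Of 4 Y-linked genes none passed 0.174 TPM in any library, although the mice are labelled male.

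Promoter sequence is shown for the genes in which the core of the antioxidant response element, TGACNNNGC, was found near the start, since NRF2 acts through this element. Both strands were searched in RefSeq windows of 300 bases, 250 before to 50 after the start, on GRCm38.p6. Of 50 antioxidant genes with a window, 10 held the core (20%), against 13.99% of 27025 genes in the same table. The 4 of these 10 that changed in at least 1 comparison were Gclm, Gstm5, Srxn1 and Nfe2l2, and Prdx1, Sod1 and Txnrd1 are shown as 3 that did not. Of all 47 tested antioxidant genes, 26 changed in none, and the share over all genes was not taken. Neither the difference of 20% from 13.99% nor a link of the core to the changes was tested. Each line gives 29 bases, 5′ to 3′, on the strand on which the core reads as written, with the core in capitals.
Gclm, chr3:122245413-122245441, minus strand: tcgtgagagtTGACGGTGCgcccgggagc
Gstm5, chr3:107895802-107895830, plus strand: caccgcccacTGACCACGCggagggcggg
Srxn1, chr2:152105542-152105570, minus strand: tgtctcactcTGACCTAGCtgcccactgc
Nfe2l2, chr2:75704885-75704913, minus strand: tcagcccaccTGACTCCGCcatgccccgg
Prdx1, chr4:116685456-116685484, minus strand: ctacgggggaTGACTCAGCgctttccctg
Sod1, chr16:90220696-90220724, minus strand: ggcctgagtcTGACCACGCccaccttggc
Txnrd1, chr10:82859104-82859132, minus strand: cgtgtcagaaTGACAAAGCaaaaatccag
Distances are counted from the transcript start on which the RefSeq window is set, which in Gclm and Txnrd1 is not the outermost start of the gene. Read in the direction of the gene, the first base of the core lay 134 bases before that start in Gclm, 42 in Gstm5 and 240 in Nfe2l2. It lay 133 bases before in Prdx1, 56 in Sod1 and 92 in Txnrd1, and 28 after in Srxn1. The letters of the core in Gstm5 and in Sod1 were the same, while the bases around it differed. Gsta3, Gstm7 and Mgst1 were the others of the 10, and none of these changed in a comparison. A match is a string of letters and was not tested as a binding site.

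The brain libraries held most of these genes at measurable levels. Of the 58 genes, 47 averaged 1 TPM or more across all 9 libraries and were tested, 9 were above 0 but under that mean, and 2, the peroxidase Gpx5 and the transferase Gsta5, were listed at 0 in all 9. Means over 100 TPM were found for 14 genes, of 10 to 100 TPM for 20 and of 1 to 10 TPM for 13. TPM is a level per length, so genes can be ranked by it. The cytosolic superoxide dismutase Sod1 stood first at 773 TPM, ahead of the phospholipid hydroperoxide peroxidase Gpx4 at 753, Prdx2 at 566, Prdx5 at 509 and Txn1 at 470 TPM. Sod1 and Gpx4 overlapped in their libraries, as did Prdx2 and Prdx5. Together the 58 genes took 0.561% to 0.636% of a library. Their sum was 5845 ± 240 TPM (SD, n = 3) in aged GRP-E1F2, 6047 ± 239 TPM in aged saline and 6280 ± 70.9 TPM in young saline. Peroxiredoxins and thioredoxins made up 40.6% of it, transferases 23.6%, glutathione peroxidases 16.2%, dismutases and catalase 16.1%, the NRF2 group 2.19% and the 4 genes of glutathione synthesis and recycling 1.33%.

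**Figure D1:**
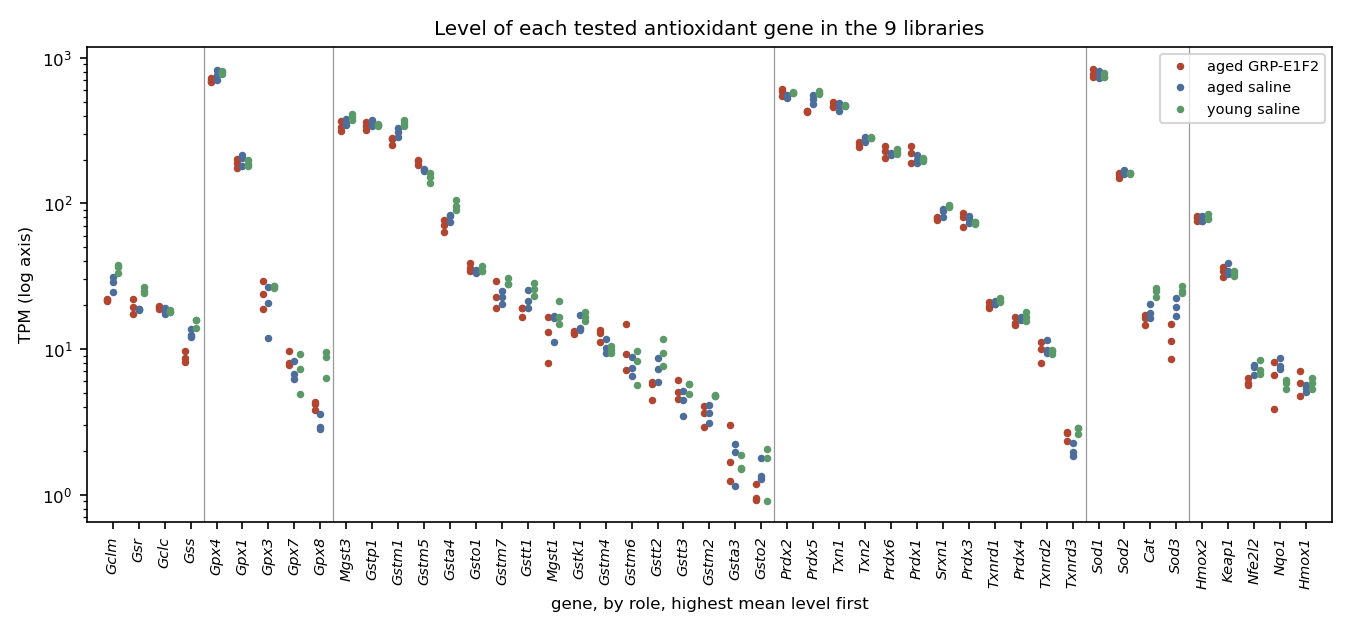
Level of each tested antioxidant gene in the 9 libraries (TPM, log axis), 1 point per library, with aged GRP-E1F2 left of aged saline and young saline for each gene. Genes are grouped by role with the highest mean level first in each role. Sod1, Gpx4 and Prdx2 lead, at 773, 753 and 566 TPM.

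Few of these genes changed in either comparison in which the labels differ by 1 factor (a 1-factor comparison), and those that did all fell. Against aged saline, 4 of 47 tested genes fell in aged GRP-E1F2 (Gclm, Gss, Prdx5 and Sod3) and 0 rose, which is 8.51%, while 20.8% of all 13301 tested genes were called in that comparison with 13.4% lower and 7.47% higher. With age under saline, 5 fell (Gclm, Gsr, Gpx8, Txnrd3 and Cat) and 0 rose, or 10.6%, against 16.7% of all genes called, 11.2% lower and 5.48% higher. Between aged GRP-E1F2 and young saline, which differ in both age and agent, 18 fell and 2 rose, or 42.6%, against 46.6% of all genes called, 29.4% lower and 17.2% higher. In each comparison the share called was below that of all genes, so the counts do not set these genes apart. Counts given below for single roles rest on few genes and are to be read beside these all-gene shares. Gclm was the 1 gene that fell both with age and with GRP-E1F2. Of the 47, 26 changed in no comparison. For the genes that fell in both or changed in none, no share over all tested genes was taken. These counts are thus no result particular to these genes. Called means an adjusted p under 0.05 by limma on log2(TPM + 1), with Benjamini-Hochberg adjustment across all tested genes. Fold changes are given on that scale, where low genes appear to change less than they do. The comparisons share libraries: aged saline enters both 1-factor comparisons, once as the base and once as the changed group.

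The size of the changes was modest. The median log2 fold change of the 47 genes was -0.05 for aged GRP-E1F2 against aged saline (all genes -0.02), -0.06 for aged against young saline (all genes -0.05) and -0.11 for aged GRP-E1F2 against young saline (all genes -0.07). The median absolute log2 fold change was 0.120, 0.0956 and 0.179 in the same comparisons, against 0.155, 0.15 and 0.241 over all genes. Groups did not overlap for 13, 16 and 21 of the 47 genes, that is 27.7%, 34.0% and 44.7%, against 36.3%, 41.5% and 61.4% of all genes. From 2 libraries per group limma called 0, 0 and 4 of these genes, where it called 1.86%, 0.0226% and 12.9% of all genes. At an unadjusted p under 0.05, 11, 13 and 20 of the 47 passed in the fit of 3 libraries per group. The share of all genes under that unadjusted p was not taken, so these counts are no sign of change particular to these genes. At the adjusted threshold alone, 20.8%, 16.7% and 46.6% of all genes passed.

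**Figure D2:**
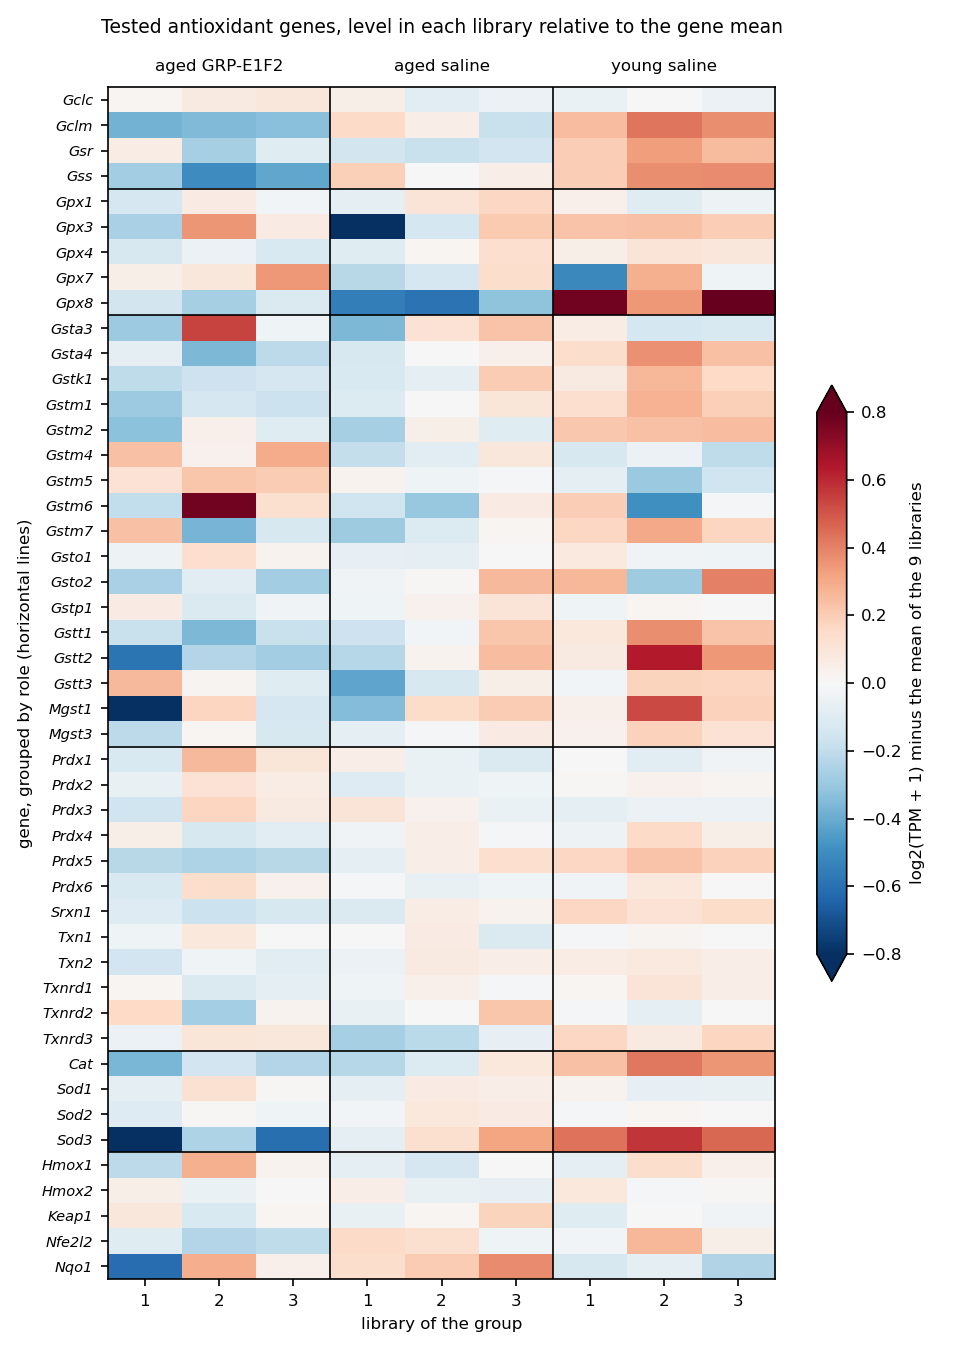
Heat map of the 47 tested antioxidant genes (rows, by role) in the 9 libraries (columns, aged GRP-E1F2 left, then aged saline, then young saline). Colour gives the difference in log2(TPM + 1) from each gene's mean over the 9 libraries and saturates at 0.8 in either direction; Gpx8, Sod3, Gclm and Gss are lower in the aged GRP-E1F2 than in the young libraries.

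Of the 4 genes of glutathione synthesis and recycling, the modifier subunit, the synthetase and the reductase were each lower in an aged group, while the catalytic subunit was not. Values per library are given in the order of libraries 1, 2 and 3. Gclm (chr3:122245487-122267215, GRCm38.p6), whose product lowers the feedback inhibition of the ligase, stood at 21.3, 21.7 and 21.96 TPM in the aged GRP-E1F2 libraries, 31.2, 29.04 and 24.6 TPM in the aged saline libraries and 33.4, 37.9 and 36.4 TPM in the young saline libraries. All 3 groups were separate, with aged GRP-E1F2 lowest and young saline highest. It fell in aged GRP-E1F2 against aged saline (log2 fold change -0.36 ± 0.0872 SE, limma adjusted p = 0.0193) and with age (log2 fold change -0.34 ± 0.0872 SE, limma adjusted p = 0.0321). In bulk RNA, fewer cells that express a gene and less of its RNA per cell cannot be told apart. From 2 libraries per group neither call held (limma adjusted p = 0.368 and 0.461), while the difference of aged GRP-E1F2 from young saline did (log2 fold change -0.70, limma adjusted p = 0.0283). The call of GRP-E1F2 against aged saline was lost without GRP-E1F2 library 3 (limma adjusted p = 0.0624) or aged saline library 2 (0.0796). The age call was lost without GRP-E1F2 library 3, aged saline library 2 or young saline library 2 or 3 (limma adjusted p = 0.0593, 0.0933, 0.113 and 0.114).

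Gclc, the catalytic subunit, stood at 18.7, 19.5 and 19.8 TPM in the aged GRP-E1F2 libraries, 19.1, 17.3 and 17.9 TPM in the aged saline libraries and 17.8, 18.6 and 17.9 TPM in the young saline libraries. The aged saline and young saline libraries overlapped, and GRP-E1F2 library 1 lay inside the aged saline range. All 3 GRP-E1F2 libraries lay above every young library. It was called in no comparison (limma adjusted p = 0.307 for GRP-E1F2 against aged saline, 0.985 for age and 0.223 for GRP-E1F2 against young saline). The ratio of Gclm to Gclc, a quantity chosen after the values were seen, was 1.14, 1.11 and 1.11 in aged GRP-E1F2, 1.63, 1.67 and 1.37 in aged saline and 1.88, 2.04 and 2.04 in young saline. The 3 groups were thus separate in the level of the modifier relative to the catalytic subunit, and no test was made of this ratio.

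Gss (chr2:155563181-155592810), which adds glycine in the last step of synthesis, stood at 9.71, 8.17 and 8.73 TPM in the aged GRP-E1F2 libraries, 13.8, 12.03 and 12.5 TPM in the aged saline libraries and 13.9, 15.8 and 15.8 TPM in the young saline libraries. It was lowest in all 3 GRP-E1F2 libraries, and the 3 groups did not overlap. It fell in aged GRP-E1F2 against aged saline (log2 fold change -0.48 ± 0.0866 SE, limma adjusted p = 0.0054), and this call held without any 1 library but not from 2 libraries per group (limma adjusted p = 0.183). Against young saline it fell by 0.71 on the log2 scale with 3 libraries per group and was also called with 2 (limma adjusted p = 0.000237 and 0.0304). The age difference was not called (log2 fold change -0.23, limma adjusted p = 0.0923). Of the 75-base stretches of Gss transcripts, 11.7% also occur in another gene, 6.49% in its antisense gene Gssos1. Strand handling was not given in the sources used here, so reads from these shared stretches could belong to either gene.

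Gsr (chr8:33653238-33698162), the NADPH-dependent reductase, stood at 21.9, 17.3 and 19.5 TPM in the aged GRP-E1F2 libraries, 18.8, 18.4 and 18.7 TPM in the aged saline libraries and 24.2, 26.7 and 25.1 TPM in the young saline libraries. Both aged groups lay below every young library and overlapped each other. It fell with age (log2 fold change -0.42 ± 0.0830 SE, limma adjusted p = 0.015), and was not called for GRP-E1F2 against aged saline (log2 fold change 0.06, limma adjusted p = 0.659). The age call was lost without aged saline library 2 or young saline library 2 or 3 (limma adjusted p = 0.0686, 0.0579 and 0.0636) and from 2 libraries per group (0.408). The sum of the 4 genes was 69.4 ± 2.56 TPM in aged GRP-E1F2, 77.8 ± 4.73 TPM in aged saline and 94.5 ± 4.88 TPM in young saline (SD, n = 3 each), with no overlap between groups.

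**Figure D3:**
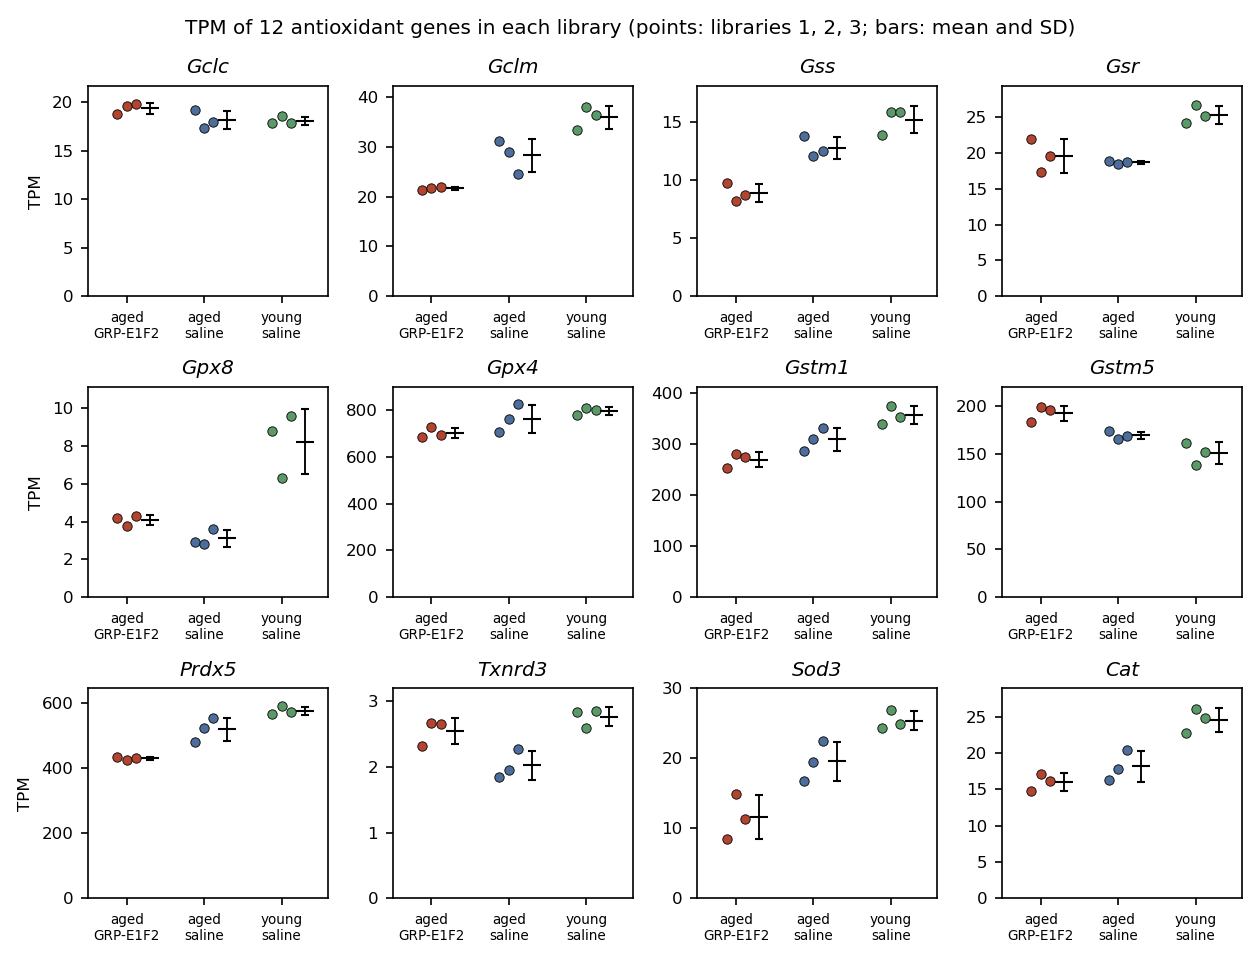
Level of 12 antioxidant genes in each library (points, TPM, linear axes from 0) with the group mean and SD (n = 3 each), aged GRP-E1F2 left of aged saline and young saline. Gclm and Gss are lowest in aged GRP-E1F2 and highest in young saline with no overlap of groups, Gstm5 runs the other way, and the Gclc libraries of both aged groups overlap.

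Of the 8 genes named as glutathione peroxidases, 5 were tested, 1 fell with age and 0 changed with GRP-E1F2 against aged saline. Gpx8 (chr13:113042757-113046430), a peroxidase of the endoplasmic reticulum, stood at 4.20, 3.79 and 4.30 TPM in the aged GRP-E1F2 libraries, 2.91, 2.81 and 3.59 TPM in the aged saline libraries and 8.79, 6.32 and 9.56 TPM in the young saline libraries. The young libraries were all above both aged groups, and the GRP-E1F2 libraries were all above the aged saline libraries. It fell with age (log2 fold change -1.15 ± 0.138 SE, limma adjusted p = 0.00268), the largest age difference among the 47 genes. This call held without any 1 library and not from 2 libraries per group (limma adjusted p = 0.304). GRP-E1F2 against aged saline gave a log2 fold change of 0.31 that was not called (limma adjusted p = 0.138), and against young saline Gpx8 fell with 3 and with 2 libraries per group (log2 fold change -0.84, limma adjusted p = 0.0012 and 0.0453).

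Gpx4, which acts on lipid hydroperoxides in membranes, stood at 686, 727 and 692 TPM in the aged GRP-E1F2 libraries, 704, 761 and 824 TPM in the aged saline libraries and 776, 809 and 799 TPM in the young saline libraries. The GRP-E1F2 and aged saline libraries overlapped, as did aged and young saline, and all GRP-E1F2 libraries lay below the young. It was called lower against young saline alone (log2 fold change -0.18, limma adjusted p = 0.0448). That call was lost without GRP-E1F2 library 1 or 3, aged saline library 2 or any young library, with limma adjusted p of 0.0659 to 0.132, and under median-of-ratios scaling (0.283). Of its 75-base stretches, 46.2% occur in another gene, mostly the pseudogene Gpx4-ps2. Gpx1, the main cytosolic peroxidase, stood at 175, 201 and 189 TPM in the aged GRP-E1F2 libraries, 182, 206 and 216 TPM in the aged saline libraries and 197, 179 and 187 TPM in the young saline libraries, with all groups overlapping. Gpx3, the secreted form, ranged from 11.8 to 29.3 TPM and Gpx7 from 4.91 to 9.72 TPM, and neither was called in a comparison. Gpx2 reached at most 0.722 TPM and Gpx6 at most 1.54 TPM, and with means under 1 TPM neither was tested.

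The 25 transferases, which join glutathione to electrophiles, gave 17 tested genes, of which 0 changed in either 1-factor comparison and 7 fell and 2 rose in aged GRP-E1F2 against young saline. These calls were 52.9% of the 17, against 46.6% of all tested genes. The mu class lies in a cluster on chromosome 3 (chr3:107895854-108045179) in the order Gstm5, Gstm7, Gstm6, Gstm3, Gstm2, Gstm1 and Gstm4. Gstm1, its most abundant gene, stood at 252, 281 and 275 TPM in the aged GRP-E1F2 libraries, 286, 310.2 and 331 TPM in the aged saline libraries and 339, 375 and 354 TPM in the young saline libraries. The 3 groups were separate, with aged GRP-E1F2 lowest. Gstm5, at one end of the cluster, stood at 183, 198 and 195 TPM in the aged GRP-E1F2 libraries, 173, 166 and 168 TPM in the aged saline libraries and 161, 138 and 152 TPM in the young saline libraries. Here the groups were also separate but in the opposite order, with aged GRP-E1F2 highest. Gstm1 fell against young saline (log2 fold change -0.40 ± 0.0710 SE, limma adjusted p = 0.00177), and Gstm5 rose (log2 fold change 0.36 ± 0.0643 SE, limma adjusted p = 0.00197). From 2 libraries per group neither was called (limma adjusted p = 0.0744 for Gstm1 and 0.0953 for Gstm5). Against aged saline the adjusted p were 0.0796 for Gstm1 and 0.0723 for Gstm5, and for age 0.0784 and 0.0948, all by limma. The ratio of Gstm1 to Gstm5, chosen after the values were seen, was 1.38, 1.42 and 1.41 in aged GRP-E1F2, 1.65, 1.87 and 1.97 in aged saline and 2.11, 2.71 and 2.33 in young saline libraries. The summed level of the 7 mu genes was 512 ± 21.1 TPM in aged GRP-E1F2, 523 ± 24.6 TPM in aged saline and 558 ± 6.15 TPM in young saline. Of their 75-base stretches, 12.3% in Gstm1 and 10.1% in Gstm5 occur in another gene.

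The remaining mu genes did not share 1 direction. Gstm4 stood at 12.9, 11.2 and 13.6 TPM in the aged GRP-E1F2 libraries, 9.39, 10.1 and 11.6 TPM in the aged saline libraries and 9.87, 10.5 and 9.33 TPM in the young saline libraries. It rose against young saline (log2 fold change 0.31 ± 0.0965 SE, limma adjusted p = 0.0253), and aged saline overlapped young saline. Gstm2 stood at 2.92, 4.06 and 3.61 TPM in the aged GRP-E1F2 libraries, 3.10, 4.09 and 3.61 TPM in the aged saline libraries and 4.71, 4.78 and 4.85 TPM in the young saline libraries. Its young libraries were above all 6 aged ones, and it fell in aged GRP-E1F2 against young saline (log2 fold change -0.36 ± 0.112 SE, limma adjusted p = 0.0265). The Gstm4 call was lost without GRP-E1F2 library 1 or 3 or young library 1 or 3 (limma adjusted p = 0.0633, 0.101, 0.0566 and 0.0936). The Gstm2 call was lost without GRP-E1F2 library 1 or 3 or any young library (limma adjusted p = 0.0534 to 0.0781). Gstm6 ranged from 5.63 to 14.9 TPM and Gstm7 from 18.9 to 30.8 TPM with no call, and Gstm3 was listed at 0 in 7 of 9 libraries.

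Among the other classes the calls were again against young saline alone. Gsta4, known for its activity on the lipid peroxidation product 4-hydroxynonenal, stood at 77.3, 63.2 and 70.4 TPM in the aged GRP-E1F2 libraries, 74.4, 81.3 and 83.7 TPM in the aged saline libraries and 89.8, 105 and 95.9 TPM in the young saline libraries. Every GRP-E1F2 library except library 1 lay below the aged saline range, and the young libraries lay above all others. It fell against young saline (log2 fold change -0.46 ± 0.0880 SE, limma adjusted p = 0.00267). Gstt1, of the theta class, stood at 19.02, 16.6 and 19.02 TPM in the aged GRP-E1F2 libraries, 19.2, 21.4 and 25.5 TPM in the aged saline libraries and 23.03, 28.3 and 25.6 TPM in the young saline libraries. It also fell (log2 fold change -0.47 ± 0.112 SE, limma adjusted p = 0.00806), with every GRP-E1F2 library below every aged saline and young library. Gstt2, its neighbour on chromosome 10, stood at 4.43, 5.91 and 5.70 TPM in the aged GRP-E1F2 libraries, 5.95, 7.29 and 8.66 TPM in the aged saline libraries and 7.58, 11.6 and 9.36 TPM in the young saline libraries. It fell as well (log2 fold change -0.72 ± 0.168 SE, limma adjusted p = 0.00712), again with every GRP-E1F2 library below all 6 saline ones. Gstk1, of the mitochondrial and peroxisomal kappa class, stood at 12.6, 12.98 and 13.3 TPM in the aged GRP-E1F2 libraries, 13.4, 13.9 and 17.1 TPM in the aged saline libraries and 15.5, 17.9 and 16.5 TPM in the young saline libraries, and fell (log2 fold change -0.33 ± 0.0931 SE, limma adjusted p = 0.0163), a call lost without young library 2 (limma adjusted p = 0.0643).

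Mgst3, a microsomal transferase with the highest mean of the tested transferases over the 9 libraries, stood at 314, 366 and 332 TPM in the aged GRP-E1F2 libraries, 345, 359 and 379.7 TPM in the aged saline libraries and 372, 411 and 393 TPM in the young saline libraries. It fell against young saline (log2 fold change -0.22 ± 0.0708 SE, limma adjusted p = 0.0311), a call lost when any of GRP-E1F2 library 1 or 3, aged saline library 2 or young library 2 or 3 was left out (limma adjusted p = 0.0923, 0.0958, 0.0514, 0.108 and 0.0877). Gstp1, of the pi class, stood at 362, 320.0 and 339 TPM in the aged GRP-E1F2 libraries, 338, 355 and 373 TPM in the aged saline libraries and 339, 350.0 and 346 TPM in the young saline libraries, and the groups overlapped. It shares 44.5% of its 75-base stretches with other genes, mainly Gstp2, whose highest library was 1.08 TPM. Gstp3 was listed at 0 in all 3 aged saline libraries, with 0.365, 0.232 and 0.238 TPM in aged GRP-E1F2 and 0.779, 1.52 and 1.03 TPM in young saline, and its mean was under 1 TPM. The 8 transferases that were not tested were Gsta1, Gsta2, Gsta5, Gstm3, Gstp2, Gstp3, Gstt4 and Mgst2. Gsto1, Gsto2, Gstt3, Gsta3 and Mgst1 were tested with no call, and their ranges were 33.4 to 38.7, 0.909 to 2.07, 3.44 to 6.13, 1.14 to 2.99 and 7.96 to 21.4 TPM.

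Of the 12 peroxiredoxins, thioredoxins and their partners, all were tested, 1 fell with GRP-E1F2 against aged saline and 1 fell with age. Prdx5 (chr19:6906697-6910106), a peroxidase of mitochondria, peroxisomes and cytosol, stood at 434, 425 and 433 TPM in the aged GRP-E1F2 libraries, 481, 524 and 554 TPM in the aged saline libraries and 567, 591 and 574 TPM in the young saline libraries. The 3 groups were separate, with aged GRP-E1F2 lowest and young saline highest. It fell in aged GRP-E1F2 against aged saline (log2 fold change -0.27 ± 0.0585 SE, limma adjusted p = 0.0125), a call lost without GRP-E1F2 library 3 (limma adjusted p = 0.0527), without aged saline library 2 (0.0576) and from 2 libraries per group (0.379). The age difference was not called (log2 fold change -0.15, limma adjusted p = 0.0981). Of its 75-base stretches, 22.1% occur in the overlapping gene Trmt112, so reads of the 2 genes could have been split between them.

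Txnrd3 (chr6:89643988-89675529), a selenoenzyme reductase best known from testis, was low in these libraries. It stood at 2.32, 2.67 and 2.65 TPM in the aged GRP-E1F2 libraries, 1.85, 1.96 and 2.27 TPM in the aged saline libraries and 2.84, 2.60 and 2.86 TPM in the young saline libraries. The aged saline libraries were below all others, while aged GRP-E1F2 overlapped young saline. It fell with age (log2 fold change -0.32 ± 0.0869 SE, limma adjusted p = 0.0388), a call that was lost when GRP-E1F2 library 3, aged saline library 1 or 2, or any young library was left out (limma adjusted p = 0.0711, 0.0844, 0.135, 0.0764, 0.0813 and 0.141). GRP-E1F2 against aged saline gave a log2 fold change of 0.23 that was not called (limma adjusted p = 0.092).

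Srxn1, sulfiredoxin, which repairs overoxidised peroxiredoxins, stood at 80.7, 77.1 and 79.3 TPM in the aged GRP-E1F2 libraries, 80.03, 90.8 and 88.5 TPM in the aged saline libraries and 97.5, 94.4 and 96.5 TPM in the young saline libraries. It fell in aged GRP-E1F2 against young saline (log2 fold change -0.28 ± 0.0576 SE, limma adjusted p = 0.00389), and the aged saline libraries lay between with 1 of them inside the GRP-E1F2 range. Txn2, the mitochondrial thioredoxin, stood at 244, 265 and 254 TPM in the aged GRP-E1F2 libraries, 263, 285 and 281 TPM in the aged saline libraries and 283, 286 and 281 TPM in the young saline libraries. Its GRP-E1F2 libraries lay below the young ones and overlapped aged saline. The call against young saline (log2 fold change -0.16 ± 0.0532 SE, limma adjusted p = 0.0382) was lost without GRP-E1F2 library 1 or 3, aged saline library 2 or any young library, with limma adjusted p of 0.0565 to 0.108, and under median-of-ratios scaling (0.336). Prdx2, which had the highest mean of the peroxiredoxins over the 9 libraries and is known from neurons and red cells, stood at 543, 613 and 589.7 TPM in the aged GRP-E1F2 libraries, 526, 546 and 552 TPM in the aged saline libraries and 569, 579 and 575 TPM in the young saline libraries, with overlap between GRP-E1F2 and both other groups. The other 7 genes were called in no comparison: Txn1 ranged from 434 to 499 TPM, Prdx1 from 189 to 247, Prdx3 from 68.6 to 86.4, Prdx4 from 14.6 to 17.9, Prdx6 from 205 to 247, Txnrd1 from 19.1 to 22.3 and Txnrd2 from 7.97 to 11.6 TPM.

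Of the 3 superoxide dismutases and catalase, the secreted dismutase fell with GRP-E1F2, catalase fell with age, and the cytosolic and mitochondrial dismutases changed in no comparison. Sod3 (chr5:52363804-52369738), the extracellular enzyme, stood at 8.54, 14.9 and 11.4 TPM in the aged GRP-E1F2 libraries, 16.8, 19.5 and 22.4 TPM in the aged saline libraries and 24.4, 26.9 and 24.8 TPM in the young saline libraries. The 3 groups were separate, with aged GRP-E1F2 lowest. It fell in aged GRP-E1F2 against aged saline (log2 fold change -0.73 ± 0.169 SE, limma adjusted p = 0.0166), the largest such difference among the 47 genes. The call was lost without GRP-E1F2 library 3 or aged saline library 2 or 3 (limma adjusted p = 0.0566, 0.0603 and 0.0534) and from 2 libraries per group (0.276). Against young saline it fell with 3 and with 2 libraries per group (log2 fold change -1.10, limma adjusted p = 0.000869 and 0.0369). The age difference gave a log2 fold change of -0.37 and was not called (limma adjusted p = 0.162).

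Cat (chr2:103453904-103485153), the peroxisomal enzyme that splits hydrogen peroxide, stood at 14.7, 17.2 and 16.2 TPM in the aged GRP-E1F2 libraries, 16.3, 17.8 and 20.5 TPM in the aged saline libraries and 22.8, 26.1 and 24.8 TPM in the young saline libraries. All young libraries were above the 6 aged ones, and the 2 aged groups overlapped. It fell with age (log2 fold change -0.42 ± 0.0947 SE, limma adjusted p = 0.0223), and this call was lost without aged saline library 1 or 2 or young library 2 or 3 (limma adjusted p = 0.0542, 0.0887, 0.0821 and 0.0869) and from 2 libraries per group (0.442). GRP-E1F2 against aged saline was not called (log2 fold change -0.17, limma adjusted p = 0.241). Sod1 stood at 733, 842 and 777 TPM in the aged GRP-E1F2 libraries, 730.4, 808 and 802 TPM in the aged saline libraries and 787, 739 and 743 TPM in the young saline libraries. Sod2, the mitochondrial enzyme, stood at 149.6, 162 and 157 TPM in the aged GRP-E1F2 libraries, 158, 170.4 and 168 TPM in the aged saline libraries and 159, 163 and 161 TPM in the young saline libraries. For both, the libraries of all groups overlapped, and the limma adjusted p for GRP-E1F2 against aged saline were 0.956 and 0.283. The ratio of Sod1 to Sod3, chosen after the values were seen, was 85.8, 56.6 and 68.2 in aged GRP-E1F2, 43.5, 41.3 and 35.8 in aged saline and 32.3, 27.5 and 29.9 in young saline libraries.

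Of the group of NRF2, its repressor KEAP1, the quinone reductase Nqo1 and both haem oxygenases, 0 of 5 changed in either 1-factor comparison. Nfe2l2 stood at 6.33, 5.67 and 5.82 TPM in the aged GRP-E1F2 libraries, 7.71, 7.56 and 6.64 TPM in the aged saline libraries and 6.73, 8.44 and 7.11 TPM in the young saline libraries. The GRP-E1F2 libraries were all below the aged saline ones, with an adjusted p by limma of 0.083. Against young saline it fell (log2 fold change -0.28 ± 0.0941 SE, limma adjusted p = 0.0378), a call lost without GRP-E1F2 library 2 or 3, aged saline library 2 or young library 2 or 3 (limma adjusted p = 0.0934, 0.108, 0.0583, 0.133 and 0.0713). Keap1 stood at 36.4, 31.3 and 34.5 TPM in the aged GRP-E1F2 libraries, 32.7, 34.5 and 38.7 TPM in the aged saline libraries and 31.9, 34.2 and 33.4 TPM in the young saline libraries, with all groups overlapping. Nqo1, a standard NRF2 target, stood at 3.89, 8.15 and 6.67 TPM in the aged GRP-E1F2 libraries, 7.23, 7.61 and 8.70 TPM in the aged saline libraries and 5.82, 6.10 and 5.32 TPM in the young saline libraries. The aged saline libraries lay above the young ones. GRP-E1F2 library 1 lay below every young library, library 3 between the saline groups and library 2 inside the aged saline range. Neither 1-factor comparison of Nqo1 was called (limma adjusted p = 0.26 for GRP-E1F2 and 0.192 for age). Hmox1, the inducible haem oxygenase, stood at 4.77, 7.11 and 5.79 TPM in the aged GRP-E1F2 libraries, 5.35, 5.08 and 5.67 TPM in the aged saline libraries and 5.31, 6.36 and 5.85 TPM in the young saline libraries. Hmox2, the constitutive one, stood at 81.6, 76.2 and 78.9 TPM in the aged GRP-E1F2 libraries, 82.03, 75.8 and 75.6 TPM in the aged saline libraries and 83.9, 78.6 and 79.5 TPM in the young saline libraries. For both haem oxygenases the groups overlapped, and 36.8% of the 75-base stretches of Hmox2 occur in another gene.

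**Figure D4:**
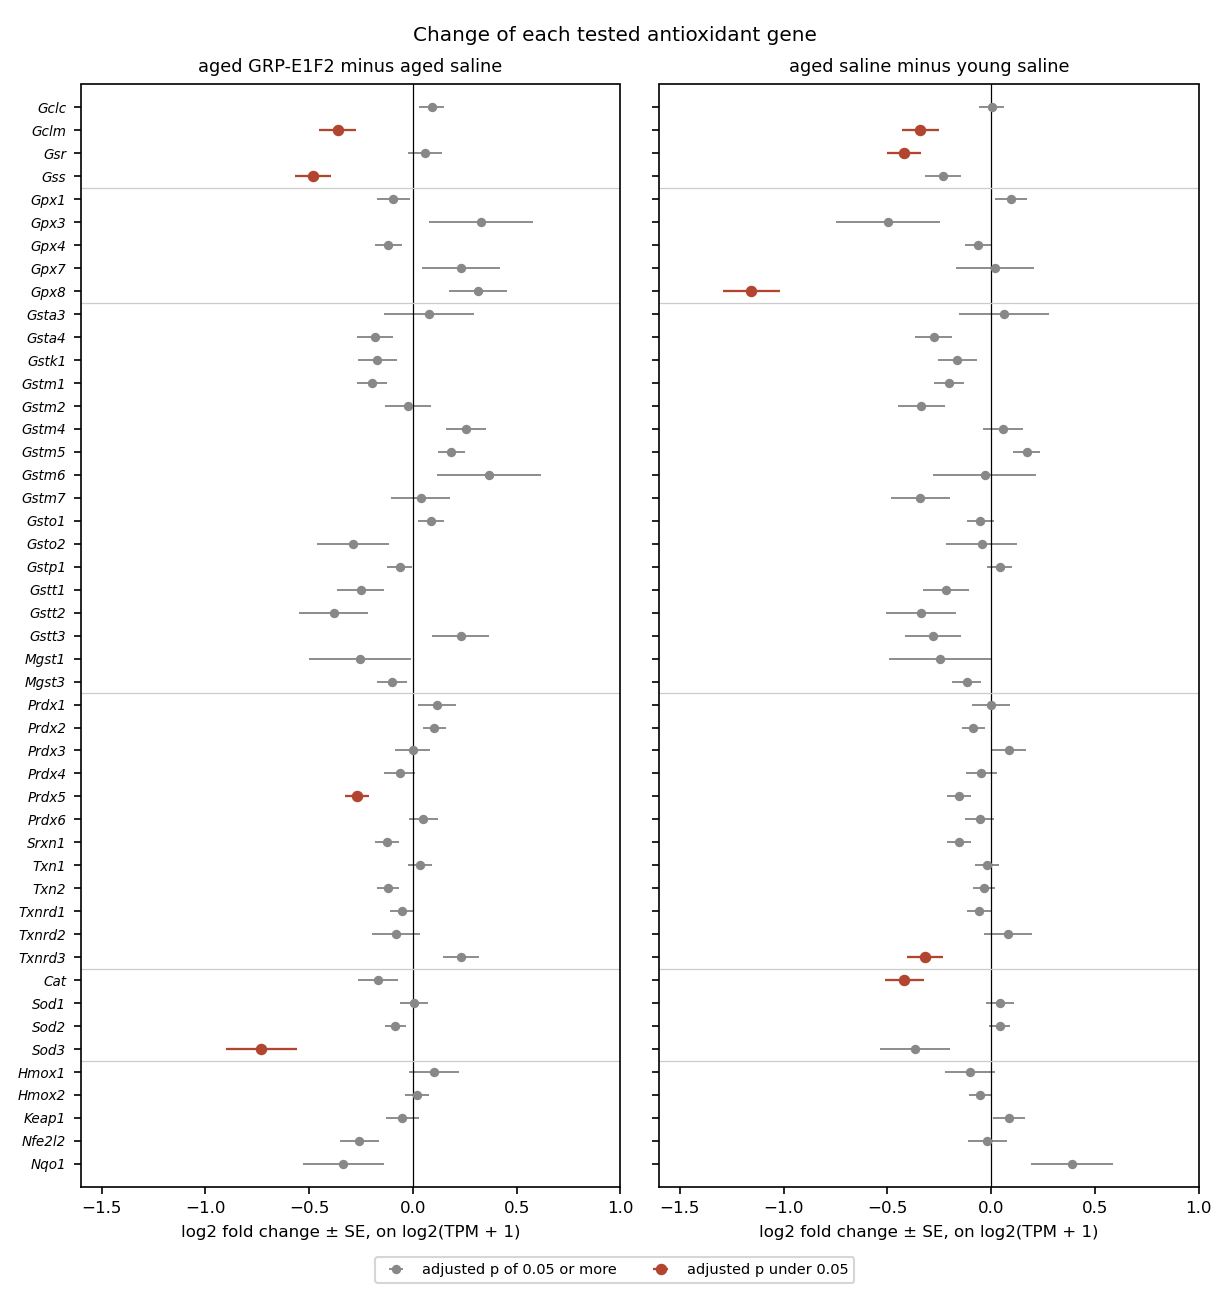
Log2 fold change (log2(TPM + 1) scale) with SE of each tested antioxidant gene for aged GRP-E1F2 minus aged saline and for aged saline minus young saline, grouped by role, red where limma called it at an adjusted p under 0.05 and grey elsewhere. Sod3 lies at -0.73 in the first comparison and Gpx8 at -1.15 in the second.

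Against young saline, 13 of the 20 calls in aged GRP-E1F2 held without any 1 library: Gclm, Gss, Gsr, Gpx8, Gsta4, Gstm1, Gstm5, Gstt1, Gstt2, Prdx5, Srxn1, Cat and Sod3. From 2 libraries per group 4 of them were called, Gclm, Gss, Gpx8 and Sod3, all lower. Across the 3 groups, 5 genes were fully ordered with aged GRP-E1F2 lowest and young saline highest, namely Gclm, Gss, Gstm1, Prdx5 and Sod3, and Gstm5 alone was ordered the other way. At the steady end, 15 genes had a highest library under 1.25 times the lowest. For the counts of held calls, ordered genes and steady genes, no share over all tested genes was taken. These counts therefore do not set the antioxidant genes apart.

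The aged groups, and aged GRP-E1F2 most, also held less of several cell type markers, and these values stand beside every fall above. The 10 astrocyte markers summed to 452 to 500.1 TPM in aged GRP-E1F2, 549 to 588 TPM in aged saline and 699 to 795 TPM in young saline libraries, and 4 of 10 fell with GRP-E1F2 against aged saline and 6 of 10 with age. For 12 markers of cerebellar neurons the sums were 458 to 541, 4076 to 4380 and 6260 to 8665 TPM in the same order, and 12 and 11 of 12 fell in these comparisons. The median log2 fold change of these 12 was -4.65 for GRP-E1F2 against aged saline and -0.77 for age. Pvalb made up most of the sum in aged GRP-E1F2, with means of 356, 1944 and 3243 TPM. Pcp2 averaged 5.99, 807 and 1590 TPM and Cbln1 12.7, 360 and 631 TPM. Of 4 markers of cerebellar glia, whose sums were 306 to 482, 1009 to 1314 and 1164 to 1580 TPM, 4 and 3 fell. The 8 oligodendrocyte markers summed to 5533 to 5708, 6122 to 7410 and 9052 to 9635 TPM, and 4 and 6 fell. For 8 markers of meningeal fibroblasts the sums were 35.6 to 45.1, 41.4 to 65.3 and 105 to 117 TPM, and 2 and 6 fell. The choroid plexus list of 8 varied within groups, at 57.8 to 1030.4, 214 to 1300.1 and 2334 to 2391 TPM, and 1 and 5 of its 7 tested genes fell. The 6 endothelial markers summed to 173 to 205, 202 to 214 and 238 to 253 TPM, and 0 and 1 fell. Other lists moved differently. Microglial markers were at 219 to 283, 207 to 239 and 167 to 197 TPM, and 2 and 3 of 8 rose. The 6 neutrophil markers stood out in aged saline, at 1.38 to 4.08, 35.4 to 98.2 and 3.98 to 8.24 TPM, and of 4 tested, 4 fell with GRP-E1F2 and 4 rose with age. Markers of olfactory axons and bulb were at 27.02 to 138, 50.1 to 103 and 4.83 to 7.23 TPM, and of 4 tested, 1 rose with GRP-E1F2 and 3 with age. For 7 neocortical markers the sums were 557 to 1009, 633 to 702 and 405 to 514 TPM, and 0 and 2 rose. Striatal markers, at 1039 to 3005, 1361 to 1844 and 417 to 1322 TPM, were called in neither of these comparisons, with medians of 0.25 for GRP-E1F2 and 1.46 for age on the log2 scale. The 6 anterior pituitary markers varied widely in aged GRP-E1F2, at 4.34 to 883 TPM. They were at 21.7 to 25.6 TPM in aged saline and 5.63 to 6.12 TPM in young saline. The 5 red cell markers summed to 1085 to 2770, 1680 to 2716 and 2428 to 3012 TPM. No gene of the pituitary or red cell list was called in either of these comparisons. The 5 ependymal markers summed to 51.7 to 61.2, 65.8 to 73.96 and 69.5 to 72.7 TPM, and 1 and 0 fell. None of the markers found in these lists was at 0 in every library. The labels do not say which regions of the brain were taken, and the part of these shifts in the antioxidant results was not tested.

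Genes around the pathway were described from 6 lists of 115 genes, of which 102 were tested. Against aged saline, 6 rose and 13 fell in aged GRP-E1F2, with age 2 rose and 14 fell, and in aged GRP-E1F2 against young saline 15 rose and 28 fell. The shares called were 18.6%, 15.7% and 42.2%, against 20.8%, 16.7% and 46.6% of all tested genes in the same comparisons, so the counts of these lists do not set them apart. From 2 libraries per group the counts were 0 and 1, 0 and 0, and 1 and 9 in the same comparisons. In the list of glutathione transport and turnover, 2 of 20 rose and 2 fell with GRP-E1F2 (20% called), and 0 rose and 2 fell with age (10% called). Slc1a1, a neuronal transporter of glutamate and cysteine, rose with GRP-E1F2 to 35.7 ± 1.69 TPM, against 25.3 ± 1.25 TPM in aged saline (limma adjusted p = 0.00581), and averaged 20.98 ± 2.55 TPM in young saline. Gstz1, a zeta-class transferase of tyrosine breakdown, rose to 43.2 ± 1.21 TPM, against 34.8 ± 1.73 TPM in aged saline (limma adjusted p = 0.0073). Oplah, which recovers glutamate from 5-oxoproline, fell in both comparisons, with 5.68 ± 0.383 TPM in aged GRP-E1F2, 7.40 ± 0.884 TPM in aged saline and 10.8 ± 0.590 TPM in young saline (limma adjusted p = 0.0329 and 0.0115). Slc7a11, the cystine transporter, fell with age to 1.15 ± 0.200 TPM, against 1.98 ± 0.159 TPM in young saline (limma adjusted p = 0.0214), and was 1.18 ± 0.198 TPM in aged GRP-E1F2.

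Of 14 tested glutaredoxins and thioredoxin-like genes, 1 rose and 1 fell with GRP-E1F2, and 1 fell with age. The shares called were 14.3% and 7.14%, against 20.8% and 16.7% of all tested genes. Nxn, nucleoredoxin, fell in both comparisons, with 7.91 ± 0.701 TPM in aged GRP-E1F2, 12.1 ± 2.41 TPM in aged saline and 21.3 ± 1.56 TPM in young saline (limma adjusted p = 0.0164 and 0.00813). Among 13 tested regulators of NRF2, 0 changed in either 1-factor comparison, against the same 20.8% and 16.7% of all tested genes. In aged GRP-E1F2 against young saline 1 rose, or 7.69%, against 46.6% of all tested genes. These counts rest on few genes, and the differences in share were not tested.

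Of 23 tested NRF2-induced enzymes and genes of NADPH supply and iron storage, 1 rose and 3 fell with GRP-E1F2, and 4 fell with age. The share called was 17.4% in each, against 20.8% and 16.7% of all tested genes. Aldh1a1, an aldehyde dehydrogenase, stood at 9.37, 9.28 and 9.04 TPM in the aged GRP-E1F2 libraries, 23.7, 29.1 and 35.1 TPM in the aged saline libraries and 61.7, 85.5 and 70.8 TPM in the young saline libraries. The 3 groups were far apart, and GRP-E1F2 against aged saline was called with 3 and with 2 libraries per group (log2 fold change -1.55, limma adjusted p = 0.000158 and 0.0245). G6pdx, which makes NADPH in the pentose phosphate pathway, averaged 16.3 ± 2.30 TPM in aged GRP-E1F2, 21.8 ± 2.11 TPM in aged saline and 28.6 ± 1.49 TPM in young saline, and fell in both comparisons (limma adjusted p = 0.0258 and 0.0394). Idh1, a cytosolic NADPH source, rose with GRP-E1F2 to 22.8 ± 0.906 TPM, against 17.04 ± 1.33 TPM in aged saline (limma adjusted p = 0.00708). The ferritin genes were called in neither comparison: Ftl1 averaged 836 ± 72.4, 822 ± 46.8 and 852 ± 10.1 TPM, and Fth1 4398 ± 355, 4836 ± 207 and 4857 ± 34.6 TPM, in aged GRP-E1F2, aged saline and young saline.

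Of 23 methionine sulfoxide reductases, selenoproteins and other defence genes, 1 rose and 6 fell with GRP-E1F2 and 1 rose and 6 fell with age. The share called was 30.4% in each, against 20.8% and 16.7% of all tested genes, and this difference was not tested. Selenom, a selenoprotein of the endoplasmic reticulum, stood at 325, 411 and 361 TPM in the aged GRP-E1F2 libraries, 631, 697 and 748 TPM in the aged saline libraries and 809.6, 1024 and 901 TPM in the young saline libraries. It fell with GRP-E1F2 against aged saline (log2 fold change -0.92 ± 0.111 SE, limma adjusted p = 0.000683; 0.067 from 2 libraries per group) and with age (log2 fold change -0.39 ± 0.111 SE, limma adjusted p = 0.0421). Msra, which repairs oxidised methionine, fell with GRP-E1F2 to 61.8 ± 3.90 TPM, against 82.1 ± 5.34 TPM in aged saline (limma adjusted p = 0.00509). Selenop, which carries selenium, fell with age to 137 ± 4.73 TPM, against 191 ± 9.49 TPM in young saline (limma adjusted p = 0.0044). Of 9 tested sources of superoxide and peroxide, 1 rose and 1 fell with GRP-E1F2, and 1 rose and 1 fell with age. The share called was 22.2% in each, against 20.8% and 16.7% of all tested genes. Noxo1, an oxidase organiser, fell with GRP-E1F2 to 0.835 ± 0.195 TPM, against 1.84 ± 0.534 TPM in aged saline. Its levels were near the mean of 1 TPM required for testing. Ncf1, an oxidase subunit of phagocytes, rose with age to 3.23 ± 0.261 TPM, against 2.25 ± 0.200 TPM in young saline. Maoa, monoamine oxidase A, fell with age to 12.6 ± 0.399 TPM, against 15.5 ± 1.05 TPM in young saline.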

How the data were processed

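RNA of mouse brain was measured in 9 libraries, 3 per group, made per the labels' protocols with the NEBNext Ultra II kit from 0.4 ug of total RNA. Tools named, per the submitters' processing notes, are GATK, HISAT2, SAMtools 0.1.18 and Picard, on mm10. The deposited table holds TPM per gene, computed by the authors. Which tool and annotation made the values, and how reads of overlapping or similar genes were assigned, was not given in the sources used here. Depth is unknown, so no counting error was given.

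On a log2(TPM + 1) scale, 13301 genes averaging 1 TPM or more entered a limma fit (version 3.58.1, R 4.3.3, eBayes with trend, 9 libraries, 3 group means, two-sided, Benjamini-Hochberg over all tested genes). The fit was first tested on simulated data. The genes, roles, lists and tests were chosen with earlier results of these data known, so no count here is independent support. Library values were given for genes called in a comparison, the 2 highest of each role and 11 listed genes, and of the surrounding lists up to 4 called genes each were eligible. A gene that this rule took is not reported here. Alternatives were a pseudocount of 0.1 or 5 TPM, no filter or a 5 TPM filter, 2 scalings, no mitochondrially encoded genes, a replicate block, other eBayes settings, fits of the groups compared, leaving out each library, and 2 libraries per group.

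Group assignment came from the sample titles. Of the 58 genes 57 were found in the RefSeq gene table (GRCm38.p6, the build also called mm10), which gave positions. Stretches of 75 bases shared between genes were counted in GENCODE M21 transcripts on both strands. Tables and figures were made with pandas 2.3.3, numpy 2.4.6 and matplotlib 3.10.9 under Python 3.11.15.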

Additional observations from a re-analysis of the deposited data

How the results depend on the processing

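The number of antioxidant genes called changed with the libraries used. Apart from the runs of 2 libraries per group, the share of all genes called is not given for these alternatives. The counts below therefore do not set the antioxidant genes apart. For GRP-E1F2 against aged saline it was 4 and became 0 from 2 libraries per group and 1 to 6 when each library in turn was left out (1 without GRP-E1F2 library 3 or aged saline library 2). For age it was 5 and became 3 after quantile normalisation, 0 from 2 libraries per group and 1 to 9 without each library (9 without GRP-E1F2 library 1, 8 without aged saline library 3, 3 without GRP-E1F2 library 3 or aged saline library 1, and 1 without aged saline library 2 or young library 2 or 3). For GRP-E1F2 against young saline it was 20 and became 4 from 2 libraries per group and 14 to 20 without each library. Deviations from the group mean correlated at -0.055 to 0.126 for same-numbered libraries and at -0.134 to 0.123 for others. Not every library correlated best with its own number. These values showed no pairing by replicate number, but with 3 libraries per group, 1 of them intermediate, they cannot exclude it. With the replicate block the counts were 6, 5 and 20 in the same order of comparisons. The Txnrd3 age call and the Nfe2l2 call against young saline were then lost. With no filter on low values the calls of Gpx4 and Nfe2l2 against young saline were lost, with no trend in the prior variance those of Gpx4 and Txn2, and in fits of only the groups compared the age calls of Gclm and Txnrd3. In no alternative run did a called gene reverse its direction. Under median-of-ratios scaling the counts were 4, 4 and 16, and the Txnrd3 age call was lost, as were the calls against young saline of Gpx4, Gstm2, Mgst3, Nfe2l2 and Txn2. After quantile normalisation the counts were 5, 3 and 17, and the age calls of Gclm and Txnrd3 and the calls against young saline of Gstk1, Gstm2, Nfe2l2 and Txn2 were lost. Without depth, the precision of low genes such as Gpx8 and Txnrd3 cannot be given beyond the spread of libraries.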
